A study of Homo sapiens with 12 samples.

Results

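The quantity described here is the difference between the interferon gamma (IFNγ) responses of a pair of hairpin lines. For each gene it is the log2 response of shINCA1 cells (with IFNγ minus untreated) minus the log2 response of shCTRL cells. It was computed for every gene of the table from all 12 libraries, so the members are the 27685 genes listed, of which 15769 could be tested. The groups are 3 libraries each of untreated shCTRL cells, shCTRL cells with IFNγ for 24 h, untreated shINCA1 cells, and shINCA1 cells with IFNγ for 24 h. All 4 groups are U251 cells, an established human glioblastoma line at passages 14-18, that stably express a short hairpin RNA. The shCTRL hairpin is a control, and the shINCA1 hairpin is directed against INCA1, a long noncoding RNA made near the PD-L1 gene. As far as the labels tell, each hairpin is represented by 1 line, so an effect of the hairpin and a difference between lines cannot be told apart. A negative difference of responses means a smaller rise, or a larger fall, in shINCA1 cells.

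IFNγ binds a cell surface receptor that activates the kinases JAK1 and JAK2, which phosphorylate transcription factors of the STAT family. Their dimers bind GAS elements in promoters and induce IRF1, a second transcription factor, which acts through ISRE elements. The target genes carry out antigen presentation on MHC molecules, antiviral and cell death functions, chemokine secretion and immune suppression through PD-L1 and tryptophan breakdown. SOCS1, itself an induced gene, blocks the JAK kinases and ends the signal.

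Libraries held 46525032 to 66242859 estimated counts and 16724 to 17216 genes above 0, and replicates had correlations of log CPM of 0.983 to 0.987. CPM are counts scaled to a common library size, and they are not divided by gene length. Of 9 glial and glioma markers, VIM (1779 to 2631 CPM), CD44 (564 to 908), SOX2 (78.1 to 129), SOX9 (112 to 210.5) and EGFR (38.3 to 78.4) were well above 0 in every library. The glial markers GFAP, S100B and OLIG2 were low, at 0.157 to 1.76, 0.192 to 2.95 and 0.133 to 1.53 CPM. NES differed between lines, with means of 137 untreated and 116 treated CPM in shCTRL against 33.5 and 28.9 in shINCA1 cells. Of 22 immune cell markers 3 were tested and 11, CD3E and NKG7 among them, were at 0 in every library. The summed level of these markers was 12.99 to 14.5 CPM in untreated and 13.9 to 15.5 CPM in IFNγ-treated shCTRL cells, and 11.8 to 12.1 and 11.4 to 13.4 CPM in shINCA1 cells. Most of this sum was 1 gene, CD68 (9.25 to 13.96 CPM), so it tells little about the other markers. The sum of 18 endothelial and epithelial markers, mostly KRT18, was 102.9 to 109.4 CPM in shCTRL and 255.9 to 291 CPM in shINCA1 libraries. The targeted RNA is not the INCA1 entry of the table, which belongs to a protein-coding gene on chromosome 17 with 23 to 38 pooled counts per group, so the hairpin labels were not checked against their target. The difference of responses of that entry was 1.39 ± 0.80 (SE, adjusted p = 0.582). Whether the 3 libraries of a group were grown apart is not stated, so a p-value rests on the spread between these libraries alone, and that spread may be technical.

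Most genes did not pass the test of the difference, and among those that did, lower values in shINCA1 cells were the more frequent. Of 15769 tested genes, 270 (1.71%) passed at an adjusted p of 0.05, with 97 (0.615%) higher and 173 (1.1%) lower in shINCA1 cells. These shares are the background for the count of each gene list below. At an unadjusted p of 0.05, 1800 genes passed. Folds were read only for the 14993 tested genes with more than 9 pooled counts in every group. Of these, 91 were higher and 169 lower, 7 and 18 of them by at least 2-fold. The median absolute log2 difference of these 260 called genes was 0.43, and the median over all 14993 genes was 0.01. Leaving out 1 library gave 174 to 235 calls. The total was 179 without shCTRL IFNγ library 2 and 174 without shINCA1 untreated library 3. The higher genes numbered 57 without shINCA1 IFNγ library 3. The lower genes numbered 112 without shCTRL untreated library 2, 115 and 100 without shCTRL IFNγ library 1 and 2, 95 without shINCA1 untreated library 3, and 100 without shINCA1 IFNγ library 2.

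**Figure D1:**
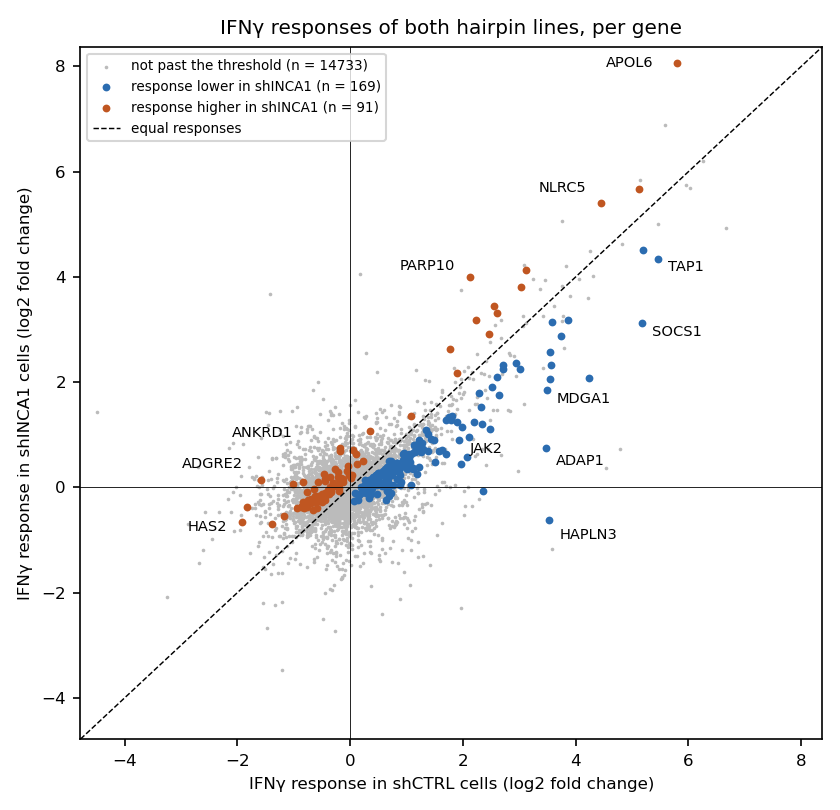
Each point is 1 gene with more than 9 pooled counts in every group (n = 14993); the x axis is its log2 IFNγ response in shCTRL cells and the y axis that in shINCA1 cells, with calls lower in shINCA1 in blue (n = 169) and higher in orange (n = 91). Blue points lie below the dashed line of equal responses, mostly at positive responses in both lines, and orange points form one group of strongly induced genes above the line and another at negative shCTRL responses.

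The called genes took different forms. They are sorted here by the sign of each log2 response alone, with no threshold on the response. Of the 169 lower genes, 143 had a positive log2 response in both lines, and 26 had a positive response in shCTRL and a negative one in shINCA1 cells. Of the 91 higher genes, 20 had a positive response in both lines, 27 a negative response in shCTRL and a positive one in shINCA1 cells, and 44 a negative response in both. Opposite signs are not always reversed responses. HAPLN3 in shINCA1 cells (-0.62, edgeR adjusted p = 0.0882) and NDUFA5 in shCTRL cells (-0.17, 0.472) did not pass a test of the response. A log2 response and an absolute gain can point in opposite directions. The gain, the mean CPM with IFNγ minus the mean CPM untreated, was smaller in shINCA1 cells for 161 of the 169 lower genes. This holds for all 26 with opposite signs, where it follows from the signs, and for 135 of the 143 others. The genes were chosen by their folds in the same libraries, so this count is no separate support. The gain was also smaller in shINCA1 cells for 12 of the 20 higher genes with a positive response in both lines, among them APOL6, PARP9, NLRC5, ERAP2 and GBP2. For these genes a larger fold in shINCA1 cells went with a smaller gain. Gains are given without a test.

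The promoters of 5 genes whose responses differed are printed here because they hold the letters of the elements named above. The sequences are RefSeq promoters of GRCh38.p14, from 170 bases before to 30 bases after the transcript start, 5′ to 3′ on the strand of the gene. Capitals mark matches on either strand to TTCNNNGAA (GAS) or GAAANNGAAA (ISRE), which were searched from 250 bases before to 50 bases after the start. The TAP1 window (chr6:32853675-32853874, minus strand) holds 2 overlapping ISRE matches. The SOCS1 window (chr16:11256175-11256374, minus strand) and the DTX3L window (chr3:122564168-122564367, plus strand) hold 1 ISRE match each. The HAPLN3 window (chr15:88895515-88895714, minus strand) holds 1 GAS match. The NMI window (chr2:151289639-151289838, minus strand) holds 1 match to each.
TAP1: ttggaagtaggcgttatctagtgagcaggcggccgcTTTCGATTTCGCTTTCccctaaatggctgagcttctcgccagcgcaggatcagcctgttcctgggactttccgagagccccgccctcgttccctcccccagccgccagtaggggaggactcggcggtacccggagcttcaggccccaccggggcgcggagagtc
SOCS1: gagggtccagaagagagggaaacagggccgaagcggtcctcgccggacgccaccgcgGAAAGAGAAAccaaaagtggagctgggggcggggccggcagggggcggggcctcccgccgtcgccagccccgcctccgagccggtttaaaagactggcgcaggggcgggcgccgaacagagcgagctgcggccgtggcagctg
HAPLN3: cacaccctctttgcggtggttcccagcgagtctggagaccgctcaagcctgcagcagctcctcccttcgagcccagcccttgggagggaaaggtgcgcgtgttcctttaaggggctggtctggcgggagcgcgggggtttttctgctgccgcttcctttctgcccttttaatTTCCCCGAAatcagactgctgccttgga
DTX3L: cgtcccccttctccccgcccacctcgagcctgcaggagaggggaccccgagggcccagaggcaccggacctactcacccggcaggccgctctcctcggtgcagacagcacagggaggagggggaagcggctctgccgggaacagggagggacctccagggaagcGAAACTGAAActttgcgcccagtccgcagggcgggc
NMI: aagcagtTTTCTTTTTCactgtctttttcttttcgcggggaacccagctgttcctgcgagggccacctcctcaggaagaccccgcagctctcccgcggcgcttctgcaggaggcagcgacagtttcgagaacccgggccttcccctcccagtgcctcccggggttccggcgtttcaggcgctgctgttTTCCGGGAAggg

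The first 3 of these genes had smaller and the last 2 larger log2 responses in shINCA1 cells. They were picked for holding a match, so they do not tell how often called genes have one. Other called genes, among them JAK2 and WARS on the lower and PARP9 and ERAP2 on the higher side, had 0 matches. Of the 169 lower genes, 141 matched a RefSeq promoter by symbol, 18 of them with a GAS match (12.8%) and 15 with an ISRE match (10.6%). Of the 91 higher genes 60 matched, 8 of them with a GAS match (13.3%) and 5 with an ISRE match (8.33%). The ISRE matches were uneven among these. The 12 matched genes with a positive response in both lines held 2 GAS (16.7%) and 3 ISRE matches (25%). The 48 with a negative response in shCTRL cells held 6 (12.5%) and 2 (4.17%). Over all 27305 promoters of the RefSeq table the shares were 7.88% and 3.65%. Over the 11568 matched promoters of the 14993 genes with more than 9 counts in every group they were 6.47% and 2.83%. Many higher genes had no matched promoter, so the shares of higher and lower genes describe the matched ones and are not tested against each other. A match describes letters in this window and is not a bound site.

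JAK2, the receptor kinase, stood at 13.7, 17.5 and 14.5 CPM in the untreated shCTRL libraries and at 58.0, 59.9 and 57.0 CPM with IFNγ. In shINCA1 cells it stood at 11.6, 11.6 and 10.9 CPM untreated and at 19.9, 22.4 and 21.4 CPM with IFNγ. No groups overlapped, and the treated shINCA1 libraries lay between the untreated and the treated shCTRL libraries. The responses were 1.94 in shCTRL and 0.90 in shINCA1 cells, a difference of -1.04 ± 0.11 (SE, adjusted p = 0.000527).

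IRF1 did not pass. Its libraries held 15.5, 15.6 and 14.0 CPM untreated and 938, 931 and 941 CPM with IFNγ in shCTRL cells, against 12.2, 10.6 and 12.3 and 632, 632 and 620 CPM in shINCA1 cells. The treated groups did not overlap, but neither did the untreated ones, and the difference of responses was -0.21 ± 0.07 (adjusted p = 0.245), with DESeq2 placing it past the threshold (adjusted p = 0.00543). The edgeR test also passed without shINCA1 untreated library 2 (adjusted p = 0.0291). NMI, a partner protein of STAT factors whose promoter is printed above, had a larger fold in shINCA1 cells. It went from 11.4, 11.0 and 11.9 to 63.7, 64.1 and 62.0 CPM in shCTRL and from 5.33, 4.79 and 5.01 to 37.8, 38.9 and 37.8 CPM in shINCA1 cells. Its difference was 0.45 ± 0.07 (adjusted p = 0.00476), and both shINCA1 groups lay below their shCTRL counterparts. Of 19 tested genes of the receptor, JAK-STAT and IRF list 1 was higher and 2 were lower. The higher count was 2 without shCTRL untreated library 3, and the lower count was 1 without shINCA1 untreated library 3 and 3 without shINCA1 untreated library 2. The median over its 17 members with more than 9 counts in every group was -0.03, beside 0.01 over all genes. The other lower member was BATF2, an interferon-induced transcription factor gene with 5 pooled counts in untreated shCTRL cells, for which no fold is given. It stood at 9.50, 9.69 and 8.74 CPM in treated shCTRL and at 4.39, 4.65 and 4.41 CPM in treated shINCA1 cells (difference of responses, adjusted p = 0.0158; 0.0582 without shINCA1 untreated library 3).

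Among 14 tested negative regulators of JAK-STAT signalling, 2 were lower and 0 higher, and the median was -0.05. SOCS1 was at 0.182, 0.255 and 0.342 CPM in untreated shCTRL and at 0.174, 0.333 and 0.341 CPM in untreated shINCA1 cells, ranges that overlapped. With IFNγ it reached 9.94, 8.76 and 9.39 CPM in shCTRL and 2.42, 2.63 and 2.44 in shINCA1 cells, with no overlap. The difference of responses was -2.05 ± 0.32 (adjusted p = 0.00672), from responses of 5.17 and 3.12. TRAFD1, a feedback regulator of innate immune signalling, had a smaller difference of -0.46 ± 0.07 (adjusted p = 0.00461).

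The MHC class I presentation list held calls in both directions, 3 higher and 5 lower of 21 tested, with a median of -0.11. TAP1, a chain of the transporter that brings peptides to class I molecules, went from 19.4, 18.5 and 18.7 to 823, 837 and 826 CPM in shCTRL cells. In shINCA1 cells it went from 15.9, 15.1 and 15.4 to 323, 320 and 303 CPM. The untreated lines differed by -0.29 on the log2 scale, without overlap (adjusted p = 9.59e-06), and the treated lines by -1.39. The responses were 5.45 and 4.35, and their difference was -1.11 ± 0.04 (adjusted p = 1.96e-07). The gain was 810 CPM in shCTRL and 299.6 in shINCA1 cells.

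HLA-B, a class I heavy chain gene, had responses of 2.10 and 0.96, a difference of -1.14 ± 0.12 (adjusted p = 0.000363). HLA-E, a class I chain recognised by NK cell receptors, had a difference of -0.57 ± 0.06 (adjusted p = 0.00028), from gains of 538 and 270 CPM. Reads can be shared among HLA genes, which makes the value of any 1 of them uncertain. The other lower members were TAP2, the partner chain of TAP1, at -0.50 and the immunoproteasome subunit PSMB8 at -0.40. Higher folds were found for the class I transactivator gene NLRC5 and the peptide-trimming protease gene ERAP2. NLRC5 went from 7.51, 6.68 and 7.07 to 161, 151 and 151 CPM in shCTRL and from 3.05, 2.13 and 2.48 to 107, 110 and 108 CPM in shINCA1 cells. The shINCA1 libraries were lower both untreated and treated, while the fold was larger, with a difference of 0.97 ± 0.12 (adjusted p = 0.00144). ERAP2 had a difference of 0.94 ± 0.07 (adjusted p = 4.79e-05), from untreated means that differed by -1.75 and treated means that differed by -0.81 between lines. TAPBPL, a peptide editor of class I molecules, was the other higher member, with 0 pooled counts in untreated shINCA1 cells and therefore no fold. Its call was lost without shINCA1 untreated library 3 (adjusted p = 0.0516) and with limma-voom (0.105).

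**Figure D2:**
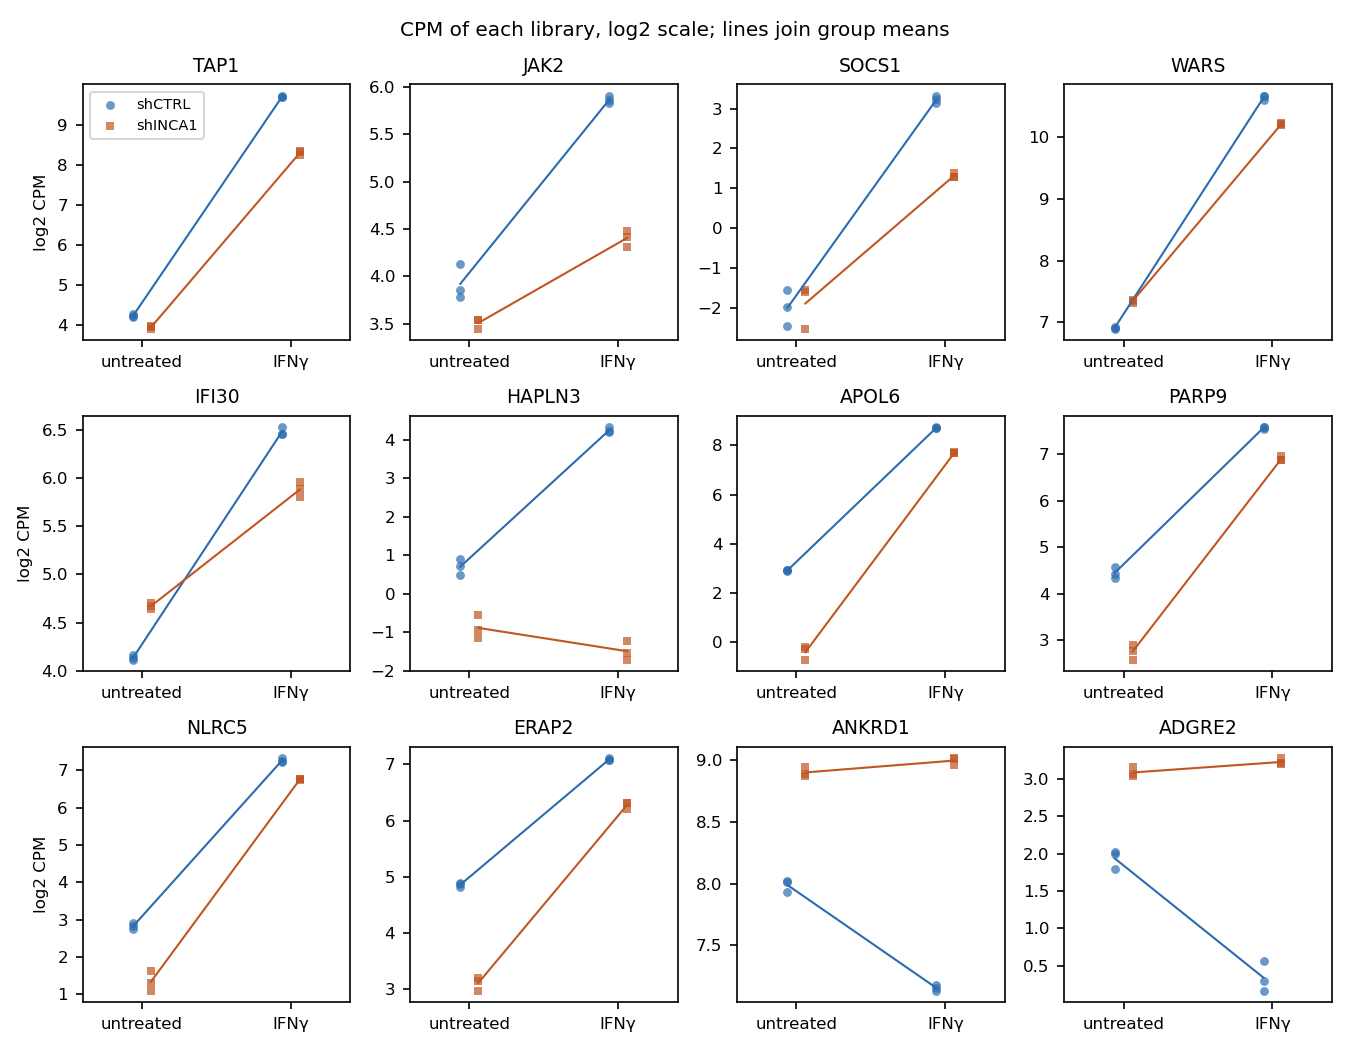
Each panel is 1 gene; points are single libraries (3 per group) as log2 CPM, circles for shCTRL and squares for shINCA1, untreated at the left and with IFNγ at the right, and lines join the means of the log2 values. TAP1, JAK2, SOCS1, WARS, IFI30 and HAPLN3 have a steeper line in shCTRL cells, APOL6, PARP9, NLRC5 and ERAP2 have a steeper line in shINCA1 cells that starts lower and ends below shCTRL, and ANKRD1 and ADGRE2 slope down in shCTRL cells and stay nearly level in shINCA1 cells.

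MHC class II presentation had 1 lower gene of 15 tested and a median of -0.12, which was -0.37 without shINCA1 untreated library 1. IFI30, a lysosomal thiol reductase used in class II processing, went from 17.5, 17.3 and 17.9 to 92.2, 88.1 and 87.6 CPM in shCTRL cells. In shINCA1 cells it went from 24.9, 26.0 and 25.5 to 62.0, 55.6 and 59.2 CPM. It was thus above shCTRL before treatment and below it afterwards, without overlap at either point, and the difference was -1.13 ± 0.06 (adjusted p = 1.6e-06). CIITA, the class II transactivator, was at 0 in all 6 untreated libraries and is described with the other genes of this kind below.

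Antiviral interferon-stimulated genes formed the longest list, with 7 higher and 11 lower genes of 50 tested. The median over 41 members was -0.22, from median responses of 2.32 in shCTRL and 2.18 in shINCA1 cells. Without 1 library 4 to 6 were higher and 5 to 10 lower. The higher count was 4 without shCTRL untreated library 2 or 3, without any 1 of the 3 shCTRL IFNγ libraries, without shINCA1 untreated library 1 or without shINCA1 IFNγ library 3. The lower count was 7 without shCTRL untreated library 2, 5 without shCTRL IFNγ library 2 or shINCA1 untreated library 3, and 6 without shINCA1 IFNγ library 2.

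The lower antiviral genes included TRIM25, the ubiquitin ligase of the RNA sensor RIG-I, at 101, 102 and 99.6 CPM untreated and 233, 240 and 234 CPM with IFNγ in shCTRL cells. In shINCA1 cells TRIM25 went from 126, 128 and 125 to 216, 210 and 216 CPM, a difference of -0.47 ± 0.04 (adjusted p = 3.42e-05). The order of the lines was reversed by treatment, with shINCA1 above shCTRL before it and below after it. IFIT5, a binder of viral RNA, had a difference of -0.46 ± 0.04 (adjusted p = 0.000203) from untreated levels that did not pass a test between lines (adjusted p = 0.103). The RNA sensor genes DDX58, which encodes RIG-I, and IFIH1, which encodes MDA5, were at -0.60 and -0.44, and IFIT3 and IFI35 at -0.68 and -0.52. Each of these 4 calls was lost when certain single libraries were left out. That of DDX58 held only without shCTRL untreated library 2 or shINCA1 untreated library 1 (adjusted p up to 0.142 without the others), and it was lost with no filter (0.0559). The IFIH1 call held only without shCTRL untreated library 1, shCTRL IFNγ library 3, shINCA1 untreated library 3 or shINCA1 IFNγ library 1 (up to 0.0999), and it was lost with limma-voom (0.163). The IFIT3 call held only without shCTRL untreated library 3 (up to 0.137), and it was lost with the replicate block (0.0977), no filter (0.0513) and limma-voom (0.0819). IFI35 was lost without shCTRL IFNγ library 2 or shINCA1 untreated library 3 (up to 0.0555). Also lower were TRIM21 (-0.77, adjusted p = 0.00108), IFI6 (-0.68, 0.0209), SP110 (-0.46, 0.0133) and SP100 (-0.42, 0.014). The TRIM21 and SP100 calls held without each single library. That of IFI6 was lost without shCTRL untreated library 2, shCTRL IFNγ library 2 or 3, or shINCA1 untreated library 1 or 3 (up to 0.0607). SP110 was lost without shINCA1 untreated library 3 or shINCA1 IFNγ library 2 (up to 0.0533). IFI44L had the largest drop in this list, -2.15 ± 0.41 (adjusted p = 0.0226), with 11.2, 11.7 and 9.89 CPM in treated shCTRL and 0.802, 0.714 and 1.11 CPM in treated shINCA1 cells. The call did not hold without shCTRL untreated library 2, shCTRL IFNγ library 1 or 2, shINCA1 untreated library 2 or 3, or shINCA1 IFNγ library 1 or 2 (adjusted p up to 0.087), with the replicate block (0.0591) and with limma-voom (0.111).

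The higher antiviral genes included a pair of neighbours on chromosome 3 whose products form a complex, the ubiquitin ligase gene DTX3L and the ADP-ribosyltransferase family gene PARP9. DTX3L went from 29.4, 28.4 and 28.6 to 230, 242 and 235 CPM in shCTRL and from 11.4, 11.2 and 10.3 to 153, 150 and 161 CPM in shINCA1 cells. PARP9 went from 20.4, 23.7 and 21.4 to 186, 192 and 191 CPM in shCTRL and from 5.97, 7.48 and 6.85 to 118, 117 and 124 CPM in shINCA1 cells. For both, each shINCA1 group lay below its shCTRL counterpart, with the wider gap before treatment. The differences were 0.79 ± 0.06 (adjusted p = 3.55e-05) and 1.02 ± 0.10 (adjusted p = 0.00027), while the gains were 207 and 168 CPM in shCTRL and 144 and 113 CPM in shINCA1 cells. PARP10, a mono-ADP-ribosyltransferase, showed the same arrangement at lower values, with 0.331, 0.200 and 0.178 CPM in untreated shINCA1 and 5.10, 5.30 and 4.26 CPM in untreated shCTRL cells. With IFNγ it reached 3.69, 3.61 and 4.04 against 22.4, 22.7 and 19.0 CPM, a difference of 1.88 ± 0.23 (adjusted p = 0.00132; 0.0819 with limma-voom). IFIT1 and IFI16, a sensor of viral RNA and one of DNA, were at 0.69 and 0.28. The IFIT1 call held only without shINCA1 untreated library 3 or shINCA1 IFNγ library 2 (adjusted p up to 0.0915 without the others), and it was lost with the replicate block (0.0657), no filter (0.0511) and limma-voom (0.145). The IFI16 call held only without shCTRL untreated library 1 or shINCA1 IFNγ library 1 (up to 0.134), and it was lost with no filter (0.0731) and limma-voom (0.0595). OAS1 and TRIM22 were also called, but untreated shINCA1 cells held 0 and 8 pooled counts of them, so no fold is given. With limma-voom OAS1 had an adjusted p of 0.0554 and TRIM22 one of 0.203. The TRIM22 call held only without shINCA1 untreated library 3 (up to 0.11 without the others), and it was lost with the replicate block (0.0938) and no filter (0.0501).

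Among guanylate-binding proteins and related GTPases, 2 of 8 tested genes were higher and 0 lower, with a median of 0.03 over 4 members. GBP2, a GTPase acting on pathogen vacuoles, went from 9.41, 9.72 and 9.41 to 340.1, 334 and 319.5 CPM in shCTRL and from 1.71, 1.66 and 1.71 to 87.8, 84.2 and 87.2 CPM in shINCA1 cells. The difference was 0.55 ± 0.05 (adjusted p = 0.000227; 0.0916 with limma-voom), although the gain was 322 CPM in shCTRL and 84.7 in shINCA1 cells. GBP1 held 3 pooled counts in untreated shINCA1 cells and 1405 in untreated shCTRL cells. With IFNγ GBP1 stood at 997, 995 and 958 CPM in shCTRL and at 141, 143 and 149 CPM in shINCA1 cells, and no fold of the responses is given.

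Cell death genes held 1 higher and 5 lower members of 27 tested, with a median of -0.13. APOL6, an apolipoprotein L with a pro-death domain, had the largest positive difference of all named genes with more than 9 counts in every group. It went from 7.69, 7.70 and 7.34 to 413, 427 and 419 CPM in shCTRL and from 0.610, 0.865 and 0.816 to 211, 203 and 205 CPM in shINCA1 cells. All 4 groups were apart, and shINCA1 was the lower line both untreated (log2 difference -3.30) and treated (-1.02). The responses of 5.79 and 8.07 differed by 2.28 ± 0.10 (adjusted p = 2.08e-07), with gains of 412 and 206 CPM. Its chromosome 22 neighbour APOL2 differed the other way, by -0.70 ± 0.07 (adjusted p = 0.000221), from untreated levels of 30.8, 28.6 and 26.8 CPM in shCTRL and 27.4, 27.5 and 29.5 in shINCA1 cells, which overlapped. FAS, a death receptor, had responses of 2.64 and 1.77 and a difference of -0.87 ± 0.12 (adjusted p = 0.0027). BAK1, which permeabilises mitochondria, and MLKL, the effector of necroptosis, were at -0.45 and -0.44.

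The checkpoint and immune suppression list had 3 lower and 0 higher genes of 22 tested and a median of -0.04 (-0.06 to 0.03 with 1 library left out). WARS, the tryptophanyl-tRNA synthetase, went from 120, 122 and 119 to 1626, 1620.1 and 1552 CPM in shCTRL cells and from 163, 160 and 165 to 1188, 1172 and 1207 CPM in shINCA1 cells. It changed from the higher to the lower level in shINCA1 cells, without overlap, and its difference of -0.86 ± 0.03 had the smallest adjusted p of the named genes (1.38e-07). CD47, a signal against phagocytosis, differed by -0.37 ± 0.07 (adjusted p = 0.0226). Its call was lost without any 1 of 9 libraries (adjusted p up to 0.0799) and held only without shCTRL untreated library 3, shINCA1 untreated library 1 or shINCA1 IFNγ library 3. The remaining lower gene was HLA-E, which is also counted in the MHC class I list above.

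The PD-L1 gene CD274 itself was not called. It went from 6.78, 7.04 and 6.24 to 96.9, 91.6 and 97.0 CPM in shCTRL and from 1.62, 2.28 and 2.60 to 37.0, 42.9 and 40.2 CPM in shINCA1 cells. The shINCA1 line was lower without overlap in both conditions, by -1.62 untreated and -1.25 treated on the log2 scale. The responses of 3.83 and 4.20 differed by 0.37 ± 0.16 (adjusted p = 0.407), and the gains were 88.5 and 37.9 CPM. PDCD1LG2, the PD-L2 gene, had a difference of 0.49 ± 0.26 (adjusted p = 0.528) and gains of 18.2 and 9.69 CPM. A p that misses the threshold does not show that the folds were equal. The targeted RNA is made near the PD-L1 gene, and its overlap with either gene was not checked here. No source used here names the strand setting, so reads of that RNA may be among the counts of both genes. Of 19 tested genes around CD274 on chromosome 9, JAK2 was the 1 lower gene and 0 were higher.

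Several chemokine and immune genes with large gaps between treated lines did not pass the edgeR test of the difference of responses, and a fold from an untreated level of 0 has no measurable size. CXCL9, a ligand of the T cell chemokine receptor CXCR3, was at 0 in all 6 untreated libraries. With IFNγ it reached 130, 128 and 121 CPM in shCTRL and 1.10, 0.551 and 0.741 in shINCA1 cells, a log2 difference between treated lines of -7.29 ± 0.17 (adjusted p = 1.05e-08). CXCL10, a second ligand, held 3 counts in 1 untreated shCTRL library and 0 in the others. It reached 165, 163 and 176 against 4.27, 4.59 and 3.74 CPM, a difference of -5.32 ± 0.13 (adjusted p = 6.13e-10). CXCL11, the remaining ligand, reached 29.6, 34.8 and 35.7 against 1.60, 2.37 and 2.24 CPM (-4.02 ± 0.16, adjusted p = 1.93e-07). None of the treated groups overlapped for these chemokines.

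IDO1, the enzyme that starts tryptophan breakdown, was at 0 untreated and reached 108, 97.3 and 97.8 CPM in shCTRL and 20.9, 22.4 and 22.1 in shINCA1 cells. CIITA reached 39.3, 37.2 and 36.1 against 16.5, 18.3 and 16.1 CPM. The treated lines differed by -2.21 ± 0.06 (adjusted p = 2.19e-08) and -1.14 ± 0.07 (adjusted p = 3.24e-06). In all, 46 tested genes had 9 or fewer pooled counts in both untreated groups, 28 of them at 0 in both. They passed the filter on low counts through their treated libraries alone, so no count of directions over them is given. Of the 46, 0 passed the edgeR test of the difference of responses after adjustment and 3 had an unadjusted p under 0.05. DESeq2 and limma-voom each called 2 of the 46, CXCL9 and ZBED6CL, the latter named after its values were seen.

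**Figure D3:**
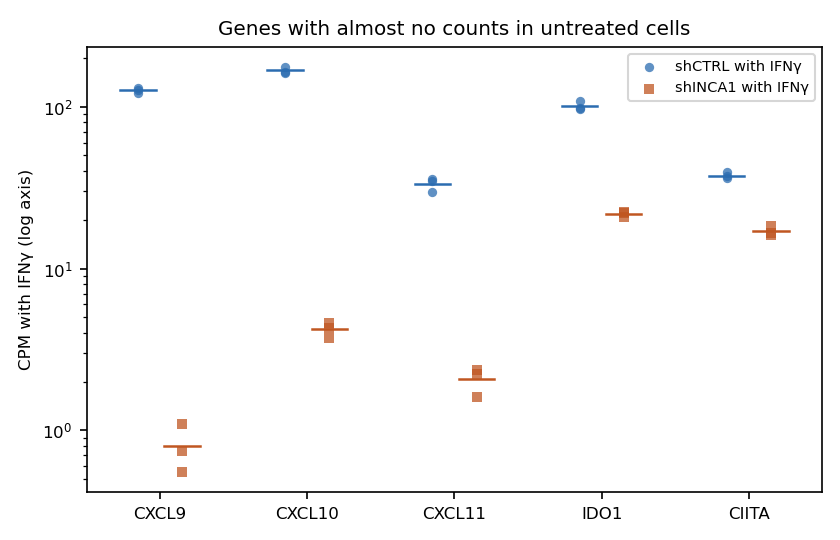
CPM with IFNγ on a log axis for 5 genes with 3 or fewer counts over all untreated libraries; points are single libraries, circles shCTRL and squares shINCA1 (3 each), and bars are means. The shINCA1 libraries lie below the shCTRL libraries for each gene, from 0.551 to 1.10 against 121 to 130 CPM for CXCL9 to 16.1 to 18.3 against 36.1 to 39.3 CPM for CIITA.

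Of the chemokine and cytokine list, 2 of 24 tested genes were lower and 0 higher, and the median was 0.04 (-0.06 to 0.11 with 1 library left out). CX3CL1, a membrane-bound chemokine, differed by -0.67 ± 0.10 (adjusted p = 0.00461), from 16.5, 14.0 and 14.5 to 31.1, 29.8 and 31.9 CPM in shCTRL and from 18.8, 20.1 and 19.0 to 25.3, 26.5 and 22.9 CPM in shINCA1 cells. CXCL16, another membrane-bound chemokine, differed by -0.42 ± 0.08 (adjusted p = 0.0206) with nearly equal gains of 10.5 and 10.7 CPM. The call did not hold without shCTRL IFNγ library 2 or 3, shINCA1 untreated library 3, or shINCA1 IFNγ library 1 or 2 (adjusted p up to 0.0709). C1R, a protease of the first complement component, was the 1 lower gene of 18 tested complement and acute phase genes. It reached 13.7, 11.9 and 11.6 CPM in treated shCTRL and 1.499, 1.35 and 0.981 CPM in treated shINCA1 cells, a difference of responses of -1.37 ± 0.23 (adjusted p = 0.00976; 0.0636 with limma-voom). The list's median was -0.26 over 11 members, and -0.02 without shINCA1 untreated library 2. Of 24 NF-κB and inflammation genes 2 were lower. TNFAIP2, a TNF-induced gene, changed by 0.33 in shCTRL and -0.20 in shINCA1 cells, a difference of -0.53 ± 0.08 (adjusted p = 0.00461). TLR4, the endotoxin receptor, differed by -0.45 ± 0.08 (adjusted p = 0.0184), a call lost without shCTRL untreated library 2, shCTRL IFNγ library 2 or 3, or shINCA1 IFNγ library 1 (adjusted p up to 0.0621).

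Leaving aside the NF-κB and chromosome 9 lists, the 10 interferon-related lists described so far together had 14 higher and 31 lower genes of 214 tested, beside 97 and 173 of 15769. The median over 173 members was -0.09, with 112 negative and 61 positive values, beside a median of 0.01 over all genes. The median responses of these members were 1.23 in shCTRL and 0.68 in shINCA1 cells. These medians fall on different genes, TRIM25 in shCTRL and ISG20 in shINCA1 cells. Their gap is therefore not the median difference per gene, which was -0.09. These counts describe the lists and carry no test of their own.

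**Figure D4:**
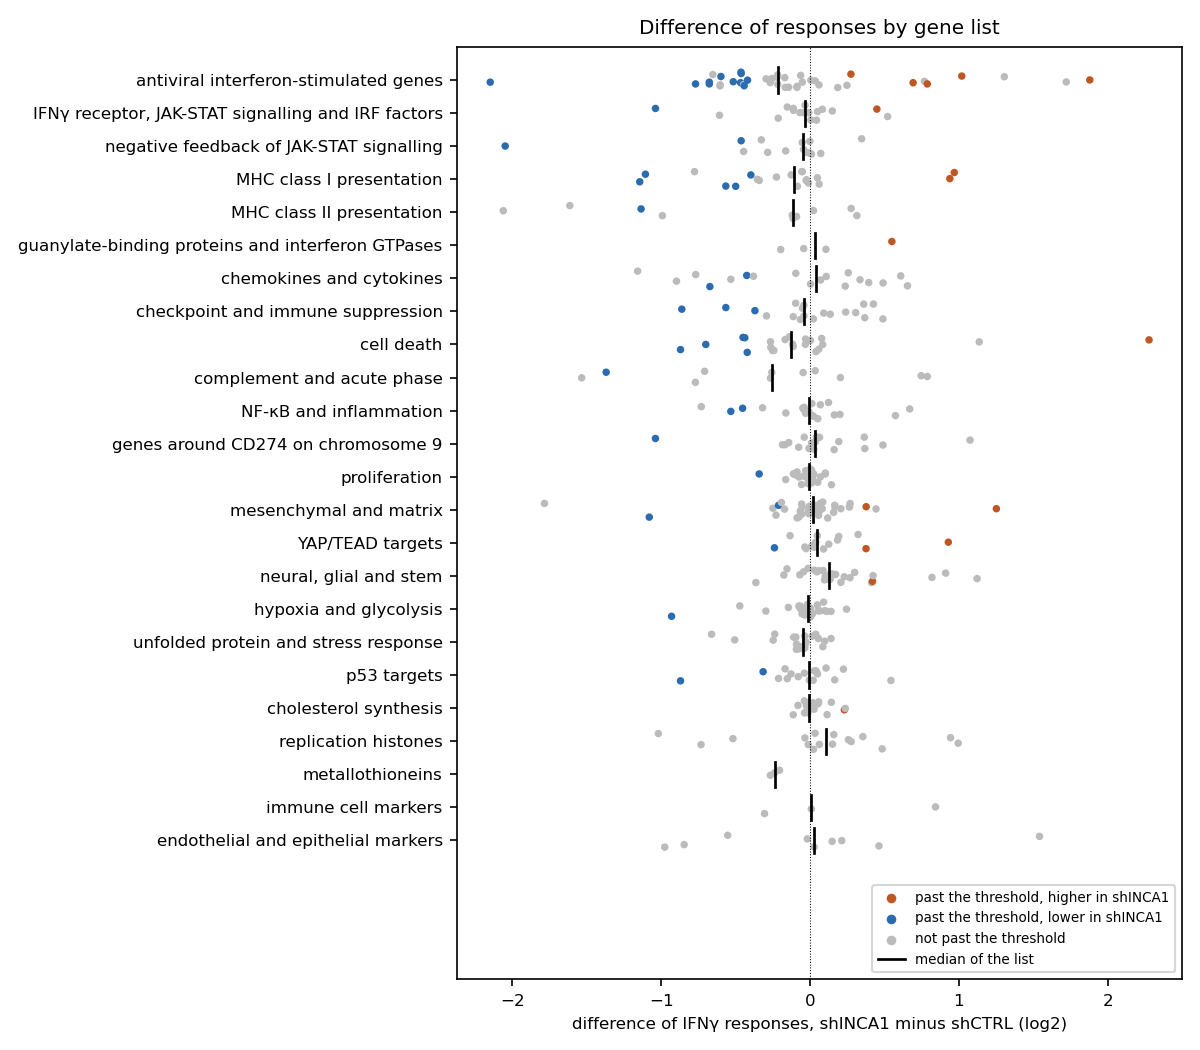
Each point is 1 list member with more than 9 pooled counts in every group; the x axis is its log2 difference of responses, shINCA1 minus shCTRL, and each row is 1 of 24 gene lists, with calls higher in orange, calls lower in blue and the list's median as a black bar. Interferon-related lists at the top hold most of the coloured points, in both directions, and the lists at the bottom hold few or none.

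Outside these lists, the genes with the most negative differences had varied functions. HAPLN3, a hyaluronan link protein gene whose promoter is printed above, had the most negative difference of all named genes with more than 9 counts in every group. It went from 1.66, 1.87 and 1.403 to 18.3, 20.05 and 18.6 CPM in shCTRL cells and from 0.522, 0.449 and 0.682 to 0.349, 0.306 and 0.426 CPM in shINCA1 cells. The shCTRL response was 3.53, and the shINCA1 value of -0.62 did not pass (adjusted p = 0.0882), so that the difference was -4.15 ± 0.24 (adjusted p = 2.56e-06). ADAP1, a regulator of ARF GTPases, had a difference of -2.72 ± 0.25 (adjusted p = 0.000171), but its treated levels were close. Untreated libraries held 0.514, 0.339 and 0.360 CPM in shCTRL and 2.42, 2.36 and 1.97 in shINCA1 cells, and treated ones 4.17, 4.53 and 4.95 against 3.71, 4.42 and 3.22 CPM, which overlapped. CLDN1, a tight junction protein gene, stood at 6.88, 5.83 and 5.63 CPM in untreated shCTRL and at 17.7, 16.2 and 16.0 CPM in untreated shINCA1 cells. With IFNγ it reached 25.3, 25.2 and 26.5 against 25.01, 24.9 and 24.6 CPM, groups that did not pass a test between them (adjusted p = 0.59). Its difference was -1.49 ± 0.10 (adjusted p = 1.25e-05).

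MDGA1, a neuronal cell adhesion gene, rose to 22.7, 24.3 and 24.1 CPM in shCTRL and to 4.74, 5.71 and 3.59 CPM in shINCA1 cells (-1.64 ± 0.20, adjusted p = 0.00131). The chromatin remodeller gene CHD5 and the channel regulator gene TCAF2 differed by -1.52 ± 0.20 and -1.48 ± 0.17 (adjusted p = 0.00184 and 0.000698). Both were among the 8 lower genes with a larger gain in shINCA1 cells, with 1.14 and 22.4 CPM in shCTRL and 1.65 and 33.0 CPM in shINCA1 cells. With limma-voom CHD5 had an adjusted p of 0.0569. IL18BP, a secreted inhibitor of interleukin 18, went from 2.05, 3.50 and 3.38 to 35.8, 35.5 and 34.3 CPM in shCTRL and from 2.82, 2.13 and 3.19 to 14.5, 13.2 and 13.1 CPM in shINCA1 cells. Its difference of -1.25 ± 0.24 (adjusted p = 0.0226) was lost without any 1 shCTRL IFNγ library, without shINCA1 untreated library 1 or 3, without shINCA1 IFNγ library 2 or 3 (adjusted p up to 0.0694) and with the replicate block (0.0536).

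A second kind of higher gene had a negative response in shCTRL cells. ANKRD1, a cardiac and mesenchymal repeat protein gene and a target of the YAP coactivator, fell from 260.2, 258 and 244 to 143, 140.4 and 145 CPM in shCTRL cells. In shINCA1 cells it stood at 469, 492 and 474 CPM untreated and at 518, 499 and 516 CPM with IFNγ. The shINCA1 libraries were the higher ones throughout, and the gap widened with treatment. The responses were -0.83 and 0.10, the latter not past the threshold (adjusted p = 0.0743), and the difference was 0.93 ± 0.04 (adjusted p = 3.95e-07). ADGRE2, an adhesion G protein-coupled receptor gene, had the same form, from 3.98, 4.07 and 3.47 to 1.12, 1.22 and 1.48 CPM in shCTRL against 8.36, 8.20 and 8.95 to 9.17, 9.71 and 9.24 CPM in shINCA1 cells (1.72 ± 0.14, adjusted p = 7.22e-05).

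SGK1, a serum- and glucocorticoid-regulated kinase gene, fell from 27.8, 26.2 and 28.6 to 15.5, 12.8 and 12.99 CPM in shCTRL cells. It stood at 4.98, 4.59 and 5.16 CPM untreated and 4.08, 5.02 and 6.26 CPM with IFNγ in shINCA1 cells, ranges that overlapped, and the difference was 1.06 ± 0.18 (adjusted p = 0.0124). The filamin-binding gene FILIP1L had responses of -1.83 in shCTRL and -0.36 in shINCA1 cells (the latter with an adjusted p of 0.187), a difference of 1.47 ± 0.21 (adjusted p = 0.00389). HAS2, a hyaluronan synthase, fell by 1.91 in shCTRL and by 0.66 in shINCA1 cells, a difference of 1.25 ± 0.24 (adjusted p = 0.0214). The HAS2 call was lost without shCTRL untreated library 1 or 3, shCTRL IFNγ library 1, shINCA1 untreated library 1 or 3 or shINCA1 IFNγ library 3 (adjusted p up to 0.0637), and with limma-voom (0.0509). NDUFA5, a subunit of respiratory complex I, differed by 0.92 ± 0.20 (adjusted p = 0.039). That call held only without any 1 shCTRL IFNγ library or without shINCA1 untreated library 3, and the adjusted p without each of the other 8 reached up to 0.0965. A2M, a protease inhibitor, had a positive response in both lines and a difference of 0.91 ± 0.18 (adjusted p = 0.0263). It was lost without shCTRL untreated library 1 or 2, shINCA1 untreated library 1 or 2 or shINCA1 IFNγ library 2 or 3 (adjusted p up to 0.0893), and with limma-voom (0.441).

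Over all tested genes 0.615% were higher and 1.1% lower, beside which the small counts of the following lists should be read. Targets of the YAP and TEAD factors had 2 higher genes and 1 lower of 16 tested, with a median of 0.04. Beside ANKRD1, the matricellular gene CYR61 had a response of -0.06 in shCTRL cells (adjusted p = 0.331) and rose by 0.32 in shINCA1 cells, a difference of 0.38 ± 0.05 (adjusted p = 0.00182). CRIM1, a BMP-binding membrane protein gene, differed by -0.24 ± 0.04 (adjusted p = 0.0178), a call lost without shCTRL IFNγ library 2 or shINCA1 IFNγ library 1 or 2 (adjusted p up to 0.0702). Mesenchymal and matrix genes had 2 higher and 2 lower of 39 tested, with a median of 0.02. THBS1, a matricellular glycoprotein, fell by 0.76 in shCTRL and by 0.38 in shINCA1 cells, a difference of 0.38 ± 0.03 (adjusted p = 2.87e-05). Its treated libraries held 697, 697 and 699 CPM in shCTRL and 1413, 1412 and 1401 in shINCA1 cells. The smooth muscle actin gene ACTA2 and the matrix gene TNC differed by -1.08 ± 0.21 (adjusted p = 0.0253) and -0.21 ± 0.04 (adjusted p = 0.0359). The ACTA2 call was lost without any 1 of 9 libraries (adjusted p up to 0.0726), all but shCTRL untreated library 3, shCTRL IFNγ library 2 and shINCA1 untreated library 2. The TNC call was lost without any 1 of 8 (adjusted p up to 0.128), all but shCTRL untreated library 3, shCTRL IFNγ library 1 and shINCA1 untreated library 2 and 3, and with the replicate block (0.0615).

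Neural, glial and stem genes had 1 higher gene of 30 tested and a median of 0.13, from median responses of -0.23 in shCTRL and -0.08 in shINCA1 cells. SOX4, a progenitor transcription factor gene, fell from 127, 124 and 129 to 73.4, 70.4 and 71.7 CPM in shCTRL and from 51.7, 49.998 and 49.3 to 40.3, 36.9 and 37.6 CPM in shINCA1 cells, a difference of 0.42 ± 0.05 (adjusted p = 0.00169). The other lists held at most 2 calls each, beside 1.71% of all tested genes. CCND1, the D-type cyclin gene, was the 1 lower gene of 30 proliferation genes (-0.34 ± 0.05, adjusted p = 0.00254). SLC2A3, a glucose transporter gene, was the 1 lower gene of 26 hypoxia and glycolysis genes (-0.93 ± 0.13, adjusted p = 0.00304). Of 17 p53 targets 2 were lower, FAS and the cell cycle inhibitor gene CDKN1A (-0.31 ± 0.06, adjusted p = 0.0196). The CDKN1A call was lost without shCTRL untreated library 2, shCTRL IFNγ library 2, shINCA1 untreated library 1 or 3 or shINCA1 IFNγ library 2 (adjusted p up to 0.0675).

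SQLE, the squalene epoxidase gene, was the 1 higher gene of 22 cholesterol synthesis genes (0.23 ± 0.04, adjusted p = 0.0229). It was lost without shCTRL untreated library 2, shCTRL IFNγ library 2 or 3, shINCA1 untreated library 2 or 3 or shINCA1 IFNγ library 1 or 3 (adjusted p up to 0.0897), and with no filter on low counts (0.0611). In 5 lists 0 genes passed the edgeR test in either direction, beside 270 of 15769 tested genes (1.71%). At that share 0 calls in lists this short say little about their genes. The lists held 21 unfolded protein and stress genes, 16 replication histones, 5 metallothioneins, 10 endothelial and epithelial markers and 3 immune cell markers. An unadjusted p under 0.05 was reached by 3, 2, 2, 4 and 0 of them, in that order. Their members of smallest p were ATF3, a stress-induced transcription factor (-0.66 ± 0.18, adjusted p = 0.113), HIST1H2BC (0.94 ± 0.33, 0.256), MT2A (-0.24 ± 0.06, 0.115), the VEGF receptor gene KDR (0.46 ± 0.11, 0.079) and CD14 (0.84 ± 0.77, 0.784). DESeq2 called ATF3, MT2A and CHAC1, named after its values were seen, in these lists and limma-voom called ATF3 alone. ATF3 passed with DESeq2 (0.00392), with limma-voom (0.0407) and without shCTRL untreated library 2 (0.00593). MT2A passed with DESeq2 (0.00354) and without shINCA1 untreated library 2 (0.0158). KDR passed with the replicate block (0.0302) and without shINCA1 untreated library 2 (0.044).

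Finally, 10 called genes had 9 or fewer pooled counts in at least 1 group, and for these only levels are given. Beside GBP1, BATF2, OAS1, TRIM22 and TAPBPL, which are described above, they included NELL2, DIRAS2, CEP170P1 and CORO7-PAM16, and of those named all but GBP1 and BATF2 were chosen after their values were seen. NELL2, a secreted neural glycoprotein gene, was at 0.199, 0.170 and 0.162 CPM in untreated shCTRL and at 0 in treated shCTRL libraries, and at 0.749, 0.938 and 1.11 CPM in treated shINCA1 libraries. DIRAS2, a small GTPase gene, was likewise at 0 in treated shCTRL libraries. Its call held only without shINCA1 untreated library 1 or shINCA1 IFNγ library 2 (adjusted p up to 0.0892 without the others), and it was lost with the replicate block (0.0789) and limma-voom (0.132). The pseudogene CEP170P1 and the read-through entry CORO7-PAM16 can share reads with related genes, so their values are uncertain. CEP170P1 was lost without shCTRL IFNγ library 2 or shINCA1 untreated library 3 (adjusted p up to 0.058).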

How the data were processed

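Stranded poly(A) messenger RNA libraries (Illumina NovaSeq, per the labels) of 12 samples were used. The authors deposited 1 table of estimated counts per gene symbol; as deposited, an estimated count is a whole number made by the authors from aligned reads and not scaled between libraries. The submitters' processing notes name FastQC, Trimmomatic, HISAT2, StringTie and the build hg19, and no source used here names the counting step, the annotation or the strand setting. The values 3 and 6 occur 5790 and 4120 times, more often than 2 (2186 times), so a single fragment may often count as 3 and counting error is larger than the counts imply. All columns were mapped by sample title.

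The model was edgeR 4.0.16 in R 4.3.3 (filterByExpr on 4 groups, TMM factors, quasi-likelihood test, all 12 libraries in 1 fit, 1 coefficient per group, two-sided). Of 27685 genes 7434 were at 0 throughout. P-values were adjusted by Benjamini-Hochberg over 15769 genes, with a threshold of 0.05. Standard errors are the log2 value divided by the square root of F. The common biological coefficient of variation was 10.6%. The code was tested on simulated data. Libraries with the same number were not paired: in 18 pairs the correlation of their deviations from group means was -0.0358 to 0.0671, and 0 were over 0.1.

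Members and lists were chosen with earlier results of these data known. The genes named are CD274, PDCD1LG2, JAK2, IRF1, IDO1, CXCL9, CXCL10, CXCL11, CIITA and the table's INCA1. To them come the 12 most positive and 12 most negative differences among called genes with at least 1 CPM on average and more than 9 pooled counts in each group, and up to 4 called members of each of 24 lists by p, or the 1 of smallest p. Further called list members are given by value. Read-through, antisense, pseudogene, LOC, small RNA and Y-linked entries (3 of 259 candidates) were not named by rank. Medians of lists cover members with more than 9 pooled counts in every group. Promoters came from a RefSeq table of GRCh38.p14 by symbol, while counts were made on hg19. Alternatives were other scaling factors and filters, DESeq2 1.42.0, limma-voom (limma 3.58.1), a replicate block, stricter thresholds and each library left out. Pseudocounts planned for FPKM values did not apply to counts. Results for a few single genes are not reported here, although these genes stayed in the fits and in the counts over lists.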

Additional observations from a re-analysis of the deposited data

Results flagged for a closer look

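For 52 named genes the test of the difference between the lines' IFNγ responses itself passed, and 51 of them are listed here for that reason with their log2 difference, shINCA1 minus shCTRL. The most positive differences were those of APOL6 (2.28), PARP10 (1.88), ADGRE2 (1.72), FILIP1L (1.47), HAS2 (1.25), SGK1 (1.06), PARP9 (1.02), NLRC5 (0.97), ERAP2 (0.94) and ANKRD1 (0.93). Smaller positive differences were found for NDUFA5 (0.92), A2M (0.91), DTX3L (0.79), GBP2 (0.55), NMI (0.45), SOX4 (0.42), THBS1 (0.38), CYR61 (0.38) and SQLE (0.23). The most negative differences were those of HAPLN3 (-4.15), ADAP1 (-2.72), IFI44L (-2.15), SOCS1 (-2.05), MDGA1 (-1.64), CHD5 (-1.52), CLDN1 (-1.49), TCAF2 (-1.48), C1R (-1.37), IL18BP (-1.25) and HLA-B (-1.14). They were followed by IFI30 (-1.13), TAP1 (-1.11), ACTA2 (-1.08), JAK2 (-1.04), SLC2A3 (-0.93), FAS (-0.87), WARS (-0.86), APOL2 (-0.70), CX3CL1 (-0.67), HLA-E (-0.57) and TNFAIP2 (-0.53). Negative differences of smaller size were found for TRIM25 (-0.47), IFIT5 (-0.46), TRAFD1 (-0.46), TLR4 (-0.45), CXCL16 (-0.42), CD47 (-0.37), CCND1 (-0.34), CDKN1A (-0.31), CRIM1 (-0.24) and TNC (-0.21). When 1 library was left out, 13 of these calls were lost in at least 1 case, as given in the report for each gene.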

How the results depend on the processing

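The number of genes whose responses differed, 270 (97 higher and 173 lower in shINCA1 cells), was within 1.5 times of this count with median-ratio factors (265), upper-quartile factors (266), no filter (237), a filter of 5 CPM in 3 libraries (292), limma-voom (261) and the replicate block (237, with 88 higher and 149 lower; 220 genes shared). DESeq2 called 509 (192 higher, 317 lower), an adjusted p of 0.01 left 113 (42 and 71), and a test against a minimum difference of 1.5-fold left 18 (7 and 11). Without 1 library there were 174 to 235 calls, 57 to 92 higher and 95 to 154 lower. Of 61 named genes with more than 9 pooled counts in every group 0 changed sign in any of these settings, and 39 of the 52 called ones passed without each single library. With all libraries and the threshold of 0.05, 10 of the 52 were lost with another scaling, filter, tool or the block. The stricter thresholds left 38 of the 52 (adjusted p of 0.01) and 14 (minimum difference of 1.5-fold). Upper-quartile factors moved the difference of gains in CPM of TAP1 to -488 and of APOL6 to -195, with no change of sign. The replicate block is given beside IFI44L, IL18BP, TNC, KDR, IFIT1, IFIT3, TRIM22 and DIRAS2, whose calls it changed. Leaving out 1 library also moved small list counts. The lower count of mesenchymal and matrix genes was 0 to 2, and it moved without any 1 of 10 libraries. The other counts given here moved by 1 gene. The lower count was 2 for MHC class II (without shCTRL untreated library 1), complement (shINCA1 untreated library 1 or shINCA1 IFNγ library 1) and hypoxia (shCTRL IFNγ library 3), and the higher count was 2 for cell death (shCTRL untreated library 1) and neural genes (shCTRL IFNγ library 1 or 3). The higher count was 1 for chemokines (shINCA1 untreated library 1), checkpoint genes (shCTRL or shINCA1 untreated library 3) and hypoxia (shCTRL IFNγ library 2). The lower stress count was 1 without shCTRL untreated library 2 or shINCA1 IFNγ library 2. Genes with 9 or fewer counts in an untreated group give no fold of responses at this depth. Intervals and floors of counting error were not used.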
